A study of Mus musculus with 6 samples.

Results

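The genes described here are imprinted genes, which are transcribed mainly from the allele inherited from one parent, together with genes that lie beside them in the same chromosomal domains. A list of 40 symbols defined the set, and a gene was measured if a row of the array was annotated with its symbol alone. By this rule 32 of the 40 genes had a row of their own, out of 19752 genes tested. Another 3 (*Snrpn*, *Ube3a* and *Gnas*) shared a row with other genes and were given no value, and 5 (*Slc22a3*, *H19*, *Kcnq1ot1*, *Peg13* and *Zrsr1*) were not analysed here. RNA came from sorted Vα2hi CD24lo mature CD4 single-positive (SP) thymocytes of mice with the OT-II TCR transgene, which fixes the TCR of most T-cells. The dKO cells carried floxed alleles of *Jmjd3* (*Kdm6b*) and *Utx* (*Kdm6a*), the H3K27Me3 demethylases, and Cre expressed under *Cd4* control, which acts from the double-positive thymocyte stage. LoxP sites flank exons for the catalytic domain. Controls, called wild-type here, were OT-II mice without Cre. For the study as a whole, the methods describe them as littermates with floxed *Jmjd3* or *Utx* alleles. There were 3 arrays per genotype, which the records call biological replicates without stating whether they are separate mice, so p-values measure only the spread between these samples. The sample records give no age. The methods give the ages of the study's mice as a range of weeks, without one for these arrays, and state that mice were female unless said otherwise.

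Imprinting is set up by DNA methylation that differs between egg and sperm and is kept in body cells by factors such as Zfp57, Trim28 and Dnmt1. Many imprinted domains also carry Polycomb marks, among them H3K27Me3, on the silent allele, often under the direction of a long non-coding RNA made from the other allele. In the *Igf2r* domain the non-coding RNA Airn, transcribed from the paternal allele, silences the paternal *Igf2r* copy. In the *Igf2* domain the insulator protein Ctcf keeps maternal *Igf2* off, and in the *Kcnq1* domain the RNA Kcnq1ot1 plays the part of Airn. Most imprinted genes act in fetal growth, the placenta or the brain. The array sums both alleles, so it measures how much RNA a gene made and not from which parent's copy.

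Of the targeted genes, *Kdm6a* had log2 values of 10.16, 10.11 and 10.21 in wild-type and 9.48, 9.40 and 9.58 in dKO cells, and differed by -0.67 on the log2 scale (standard error, SE, 0.06, limma adjusted p = 2.6e-05). *Kdm6b* differed by -0.09 (adjusted p = 0.32), and whether its probes lie in the deleted exons is not given in the sources. The 8 measured T-cell markers all lay above the background level defined in the next paragraph, led by *Cd3e* at a mean log2 value of 13.07. Their summed signal was 35268 to 36940 in wild-type and 34541 to 35018 in dKO arrays, and 3 of the 8 fell, *Thy1* by 0.61, *Cd5* by 0.43 and *Lat* by 0.15 on the log2 scale (adjusted p = 1.4e-04, 0.0023 and 0.029), while none rose. None of 6 fibroblast, 3 erythroid or 7 early progenitor markers changed. Of 8 macrophage and dendritic cell markers, *Lyz2* rose (by 0.81 on the log2 scale, adjusted p = 0.043) and *Cd68* and *Itgam* fell, with a summed signal of 475 to 531 in wild-type and 449 to 644 in dKO arrays. *Cd79b* fell among 5 B-cell markers (261 to 275 and 211 to 219), and *Epcam* rose among 7 markers of thymic epithelium (384 to 413 and 413 to 436). Every *Epcam* value lay under the background level, where expression itself is not shown. The part of these cells in the results was not tested. Markers were named here once their values were known.

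The genes were parted by level before their changes were counted. As background level served the 95th percentile of the mean log2 value of 1015 olfactory receptor genes, which T-cells are not known to use, at 5.61. By this measure 16 of the 32 imprinted genes lay above background and 16 near it, while 62.2% of all genes lay above. The level of a row also depends on its probes, so a value above 5.61 does not by itself show expression. In dKO cells 7 of the 32 genes changed at an adjusted p under 0.05 (limma, adjusted over all 19752 genes), which is 21.9% against 23.1% of all genes. The share was close to the background, so the count is no result about imprinted genes as a class. *Igf2*, *Cd81*, *Tssc4* and *Sgce* rose, and *Airn*, *Igf2r* and *Meg3* fell. Of all genes, 13.1% were called higher and 10.0% lower. The 32 genes had a median change of 0.03, against 0.01 over all genes. Among the genes above background 5 of 16 changed (31.2%, against 34.6% of all genes above background), and among those near background 2 of 16 (12.5%, against 4.19%).

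The 3 dKO values lay wholly above or wholly below the 3 wild-type values in 10 of the 32 genes, 7 of them higher and 3 lower. Over all genes such separation was found in 37.7%. *Airn* alone changed by 2-fold or more, as did 0.805% of all genes (0.582% lower). The remaining 25 genes had log2 fold changes between -0.06 and 0.19 with SEs of 0.05 to 0.08, and 21 of them lay within 0.1 of zero. The level and change of every measured gene are shown in the plot of change against mean value.

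**Figure D1:**
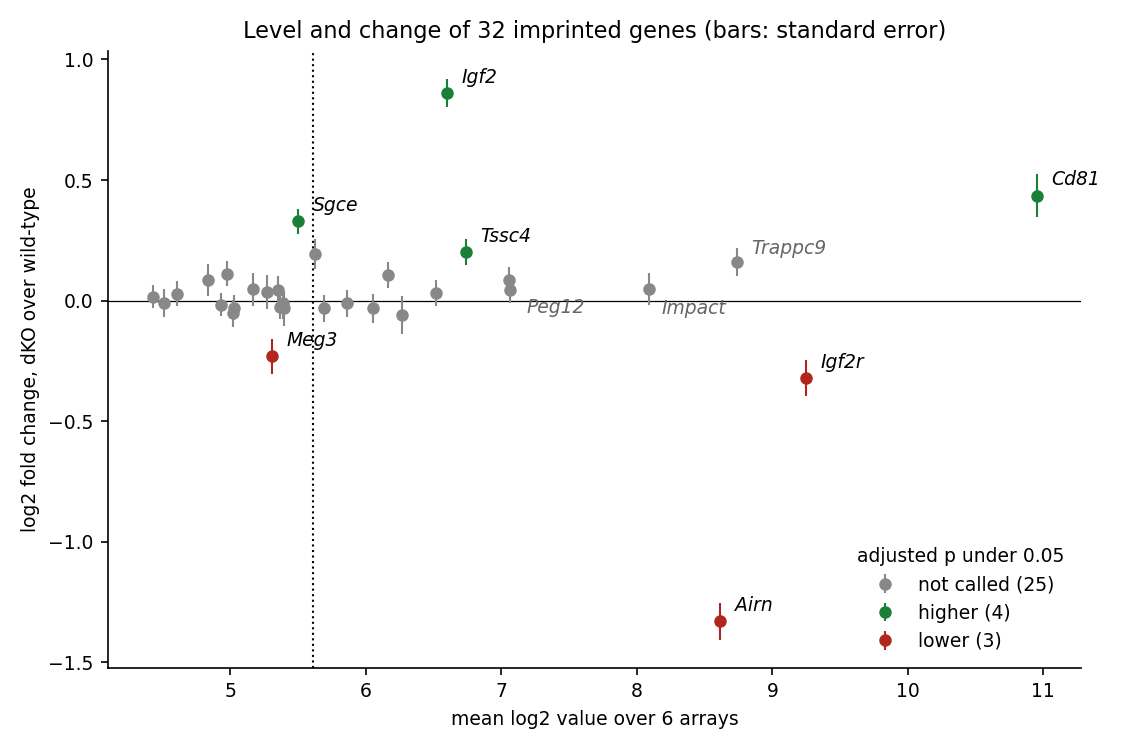
Mean log2 value over 6 arrays (horizontal axis) and log2 fold change of dKO over wild-type cells (vertical axis) of the 32 imprinted genes, with SEs (standard errors) from limma as bars. The dotted line is the background level of 5.61. *Airn* at -1.33 and *Igf2* at 0.86 lie farthest from zero, and most genes lie within 0.1 of it.

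In dKO cells the *Airn* signal was 2.51-fold lower. This long non-coding RNA gene of chromosome 17 begins inside *Igf2r* and runs in the opposite direction. Its log2 values were 9.13, 9.29 and 9.41 in the wild-type arrays and 7.88, 7.90 and 8.07 in the dKO arrays. The lowest wild-type array thus stood more than 1 log2 unit above the highest dKO array. The log2 fold change was -1.33 (SE 0.08, adjusted p = 2.0e-06 from limma), rank 50 of 19752 when genes were ordered from the largest decrease. This is 39.8% of the wild-type signal. With each array left out in turn, the log2 fold change stayed between -1.40 and -1.26.

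*Igf2r*, which encodes the receptor that carries Igf2 and mannose-6-phosphate-tagged enzymes to lysosomes, fell by less. Its log2 values were 9.35, 9.39 and 9.49 in wild-type and 8.99, 9.02 and 9.26 in dKO cells, so that the groups did not overlap but dKO replicate 3 stood nearer to the wild-type arrays. The log2 fold change was -0.32 (SE 0.07, adjusted p = 0.011), a 1.25-fold decrease. The call was lost without dKO replicate 2 (adjusted p = 0.0502) and by the methods' t-test (0.12). The *Airn* and *Igf2r* transcripts overlap on opposite strands, and how far the probes of either row read the other transcript was not tested.

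Short windows at the starts of this pair differ in base composition. Each sequence runs from 250 bases before to 50 bases after the transcript start given by RefSeq (GRCm38.p6), 5′ to 3′, and CpG dinucleotides, the sites of DNA methylation, are in capitals. The *Airn* window (chr17:12741061-12741360, plus strand) holds 3 CpG sites and the *Igf2r* window (chr17:12769657-12769956, minus strand) holds 34. Sites outside the windows, such as those farther downstream, were not counted, so these numbers do not describe the promoters as a whole. Over tested genes with a window in the table, the median was 16, taking the window with most CpG sites where a gene had several.
Airn: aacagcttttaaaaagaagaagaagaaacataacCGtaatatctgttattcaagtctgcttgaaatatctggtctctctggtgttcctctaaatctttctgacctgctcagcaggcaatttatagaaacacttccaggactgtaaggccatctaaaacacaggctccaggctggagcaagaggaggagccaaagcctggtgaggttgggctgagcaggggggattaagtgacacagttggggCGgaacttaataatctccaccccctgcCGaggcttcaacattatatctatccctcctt
Igf2r: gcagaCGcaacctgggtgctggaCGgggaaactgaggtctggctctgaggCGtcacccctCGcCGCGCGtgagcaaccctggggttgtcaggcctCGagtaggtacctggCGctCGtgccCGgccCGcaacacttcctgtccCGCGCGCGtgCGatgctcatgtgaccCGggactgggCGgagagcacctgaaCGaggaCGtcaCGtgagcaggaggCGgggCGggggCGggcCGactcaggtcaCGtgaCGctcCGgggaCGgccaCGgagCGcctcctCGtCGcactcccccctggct

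**Figure D2:**
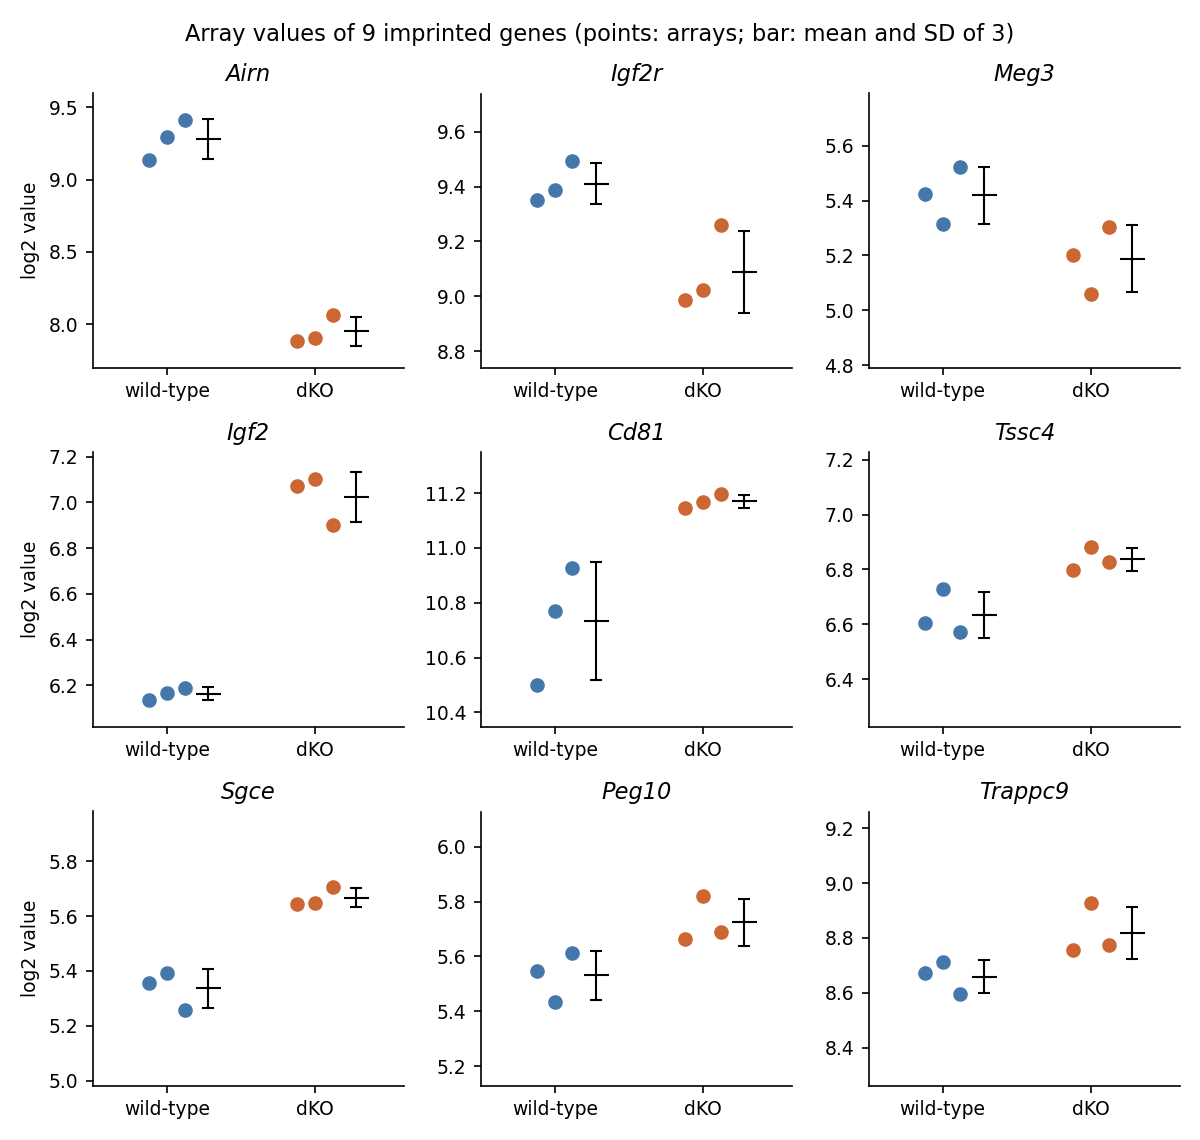
Log2 value (vertical axis, a separate range in each panel that does not start at 0) of 9 imprinted genes in the 3 wild-type and 3 dKO arrays. Points are arrays and bars the mean with the SD of 3 arrays. The groups do not overlap in any of the 9 panels, and the gap is widest for *Airn* and *Igf2*.

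*Igf2*, encoding a fetal growth factor expressed from the paternal allele, was 1.82-fold higher in dKO cells. Its log2 values were 6.14, 6.17 and 6.19 in wild-type and 7.07, 7.10 and 6.90 in dKO arrays. The wild-type arrays differed from each other by less than 0.1, and every dKO array stood above them by more than 0.7. The log2 fold change was 0.86 (SE 0.06, adjusted p = 7.0e-06 from limma), rank 74 of 19752 from the largest increase, and it stayed between 0.82 and 0.92 with each array left out in turn. The wild-type mean of 6.16 lay above the background level but below the median of all genes (6.30), so background limits the measured fold. *Igf2* is abundant in fibroblasts, and the 6 fibroblast markers had a summed signal of 387 to 412 in wild-type and 383 to 406 in dKO arrays, with none of them called. *Col1a1* stood at 6.80 and 6.79. The 7 thymic epithelium markers summed to 384 to 413 in wild-type and 413 to 436 in dKO arrays, with *Epcam* called higher and the other 6 not called. All values of *Epcam* lay under the background level. Of the macrophage and dendritic cell markers, *Lyz2* rose while *Cd68* and *Itgam* fell. How far other cells contributed to the *Igf2* signal was not tested. Beside *Igf2*, the tested genes *Mrpl23* and *Ins2*, which encodes insulin, had log2 fold changes of 0.15 (adjusted p = 0.098) and -0.02. The microRNA gene *Mir483*, which lies within *Igf2* and is no flanking gene, had a log2 fold change of -0.01. None of them passed the test.

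Several start sites are known for *Igf2*. RefSeq gives 4 windows, and 1 of them (chr7:142661222-142661521, minus strand, GRCm38.p6) holds the hexamer TGCCGC, here in its reverse-complement form GCGGCA, which is bound by Zfp57 when methylated. The same hexamer stands in 1 of the 2 windows of *Meg3* (chr12:109540746-109541045, plus strand), a maternally expressed gene that is described further on. Both windows are printed 5′ to 3′ with the hexamer in capitals.
Igf2: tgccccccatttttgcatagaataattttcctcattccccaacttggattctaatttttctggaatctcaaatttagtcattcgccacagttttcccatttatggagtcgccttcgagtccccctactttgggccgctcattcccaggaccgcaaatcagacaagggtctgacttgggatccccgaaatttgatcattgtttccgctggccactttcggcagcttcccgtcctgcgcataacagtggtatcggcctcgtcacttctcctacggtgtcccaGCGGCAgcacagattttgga
Meg3: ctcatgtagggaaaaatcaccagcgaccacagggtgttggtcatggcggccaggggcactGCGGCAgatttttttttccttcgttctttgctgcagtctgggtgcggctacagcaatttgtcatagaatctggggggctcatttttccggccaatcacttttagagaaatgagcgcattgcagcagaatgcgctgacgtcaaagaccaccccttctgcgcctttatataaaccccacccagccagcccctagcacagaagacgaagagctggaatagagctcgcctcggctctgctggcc
Of 25 measured imprinted genes with a window in the table, 7 (*Igf2*, *Meg3*, *Mest*, *Grb10*, *Nnat*, *Plagl1* and *Zim1*) held TGCCGC on either strand, against 17.2% of 15483 tested genes and 11.6% of all 32851 windows. A match in these letters is no proof of binding. Of the 7 genes, *Igf2* rose, *Meg3* fell and the other 5 did not pass the test, while 23.1% of all genes were called.

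In the *Kcnq1* domain of chromosome 7, *Cd81* and *Tssc4* rose. *Cd81* encodes a tetraspanin of the lymphocyte surface that lies at the edge of the domain and is imprinted in the placenta. Its log2 values were 10.50, 10.77 and 10.93 in wild-type and 11.15, 11.17 and 11.20 in dKO cells. The wild-type arrays were spread over 0.4 log2 units and the dKO arrays over less than 0.1, without overlap. The log2 fold change was 0.44 (SE 0.09, adjusted p = 0.0064), a 1.35-fold increase. Without wild-type replicate 1, the lowest array, it was 0.32 (adjusted p = 0.0061). The methods' t-test did not call it (adjusted p = 0.11).

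*Tssc4*, the neighbour of *Cd81*, encodes a factor of spliceosome assembly. Its log2 values were 6.60, 6.73 and 6.57 in wild-type and 6.80, 6.88 and 6.83 in dKO cells, up by 0.20 on the log2 scale (SE 0.05, adjusted p = 0.024). The call was lost in 4 of the 6 fits that left out an array, with a highest adjusted p of 0.092 without dKO replicate 2, and by the methods' t-test (0.0987). The other 5 measured genes of the domain did not pass, with log2 fold changes from -0.06 to 0.04. They include *Cdkn1c*, encoding the cell-cycle inhibitor p57, at 6.50 ± 0.08 in wild-type and 6.53 ± 0.04 in dKO cells (SD, n = 3 each, adjusted p = 0.75 from limma), and *Phlda2*, a restrainer of placental growth, at 5.86 ± 0.01 and 5.85 ± 0.10 (adjusted p = 0.92). The potassium channel gene *Kcnq1*, the transporter gene *Slc22a18* and *Ascl2*, encoding a transcription factor of the placenta, make up the rest.

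In the *Peg10*-*Sgce* domain of chromosome 6, *Sgce* rose. It encodes ε-sarcoglycan, a membrane protein, and lies beside *Peg10*. Its log2 values were 5.36, 5.39 and 5.26 in wild-type and 5.64, 5.65 and 5.71 in dKO arrays. All wild-type values lay under the background level of 5.61 and all dKO values just over it. The log2 fold change was 0.33 (SE 0.05, adjusted p = 0.0012) and kept its call with every array left out in turn. *Peg10*, a gene derived from a retrotransposon and needed in the placenta, had values of 5.55, 5.44 and 5.61 in wild-type and 5.66, 5.82 and 5.69 in dKO arrays. The groups did not overlap, and the log2 fold change of 0.19 (SE 0.06) missed the threshold narrowly, at an adjusted p of 0.0503. It passed after cyclic loess normalization (0.029), after quantile normalization again (0.028), with the mean of a gene's rows (0.0498) and without wild-type replicate 3 (0.036). It also passed over genes above background alone (0.037), a filter that it met only through its dKO arrays (wild-type mean 5.53, dKO mean 5.72), so that call is no support for an increase. *Ppp1r9a* (-0.02, adjusted p = 0.79) and *Asb4* (0.03, adjusted p = 0.77), farther along the domain, did not pass.

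*Meg3*, a maternally expressed long non-coding RNA gene of the *Dlk1*-*Dio3* domain on chromosome 12, had log2 values of 5.42, 5.31 and 5.52 in wild-type and 5.20, 5.06 and 5.30 in dKO cells. All 6 values lay under the background level, and the highest dKO array came within 0.1 of the lowest wild-type array. The log2 fold change of -0.23 (SE 0.07, adjusted p = 0.046) was lost in 7 of 12 alternatives, among them both other normalizations (0.051 and 0.062) and 4 of the 6 fits that left out an array. The paternally expressed genes of the domain did not pass. *Dlk1*, encoding a transmembrane protein related to Notch ligands, stood at 7.01 ± 0.07 in wild-type and 7.10 ± 0.05 in dKO cells (SD, n = 3 each, adjusted p = 0.31 from limma). *Rtl1*, derived from a retrotransposon, and *Dio3*, encoding the deiodinase that inactivates thyroid hormone, had log2 fold changes of -0.03 and 0.09.

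None of the 4 measured genes of the Prader-Willi and Angelman domain changed. *Peg12*, which encodes an inhibitor of the kinase Gsk3, had the highest of their values, at 7.04 ± 0.06 in wild-type and 7.08 ± 0.08 in dKO cells (SD, n = 3 each). *Magel2*, a regulator of endosomal protein recycling, had a log2 fold change of 0.10 (SE 0.05, adjusted p = 0.21). *Ndn*, encoding necdin, and *Mkrn3*, encoding a ubiquitin ligase, lay near background. All 3 genes of the *Peg3* domain, *Peg3* and *Zim1*, which encode zinc finger proteins, and *Usp29*, which encodes a deubiquitinase, also lay near background, with log2 fold changes between -0.05 and 0.05.

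Of the imprinted genes at other loci, *Trappc9* and *Impact* lay well above background. *Trappc9*, which encodes a subunit of a vesicle tethering complex, had log2 values of 8.67, 8.71 and 8.59 in wild-type and 8.76, 8.93 and 8.77 in dKO cells. The groups did not overlap, but the log2 fold change of 0.16 (SE 0.06) did not pass (adjusted p = 0.084, and 0.051 to 0.27 over the alternatives). *Impact*, an inhibitor of the stress kinase Gcn2 that is expressed from the paternal allele, had values of 8.20, 7.97 and 8.03 in wild-type and 8.14, 8.03 and 8.18 in dKO arrays, which overlapped (log2 fold change 0.05, SE 0.07, adjusted p = 0.69). *Grb10*, encoding an adaptor that restrains insulin signalling, lay near background at 4.92 ± 0.06 and 5.03 ± 0.05 (SD, n = 3 each) and did not pass (adjusted p = 0.17 from limma), although its groups did not overlap. *Mest*, *Nnat*, *Plagl1* and *Rasgrf1* lay near background as well, with log2 fold changes between -0.03 and 0.02. By parent of origin, as listed from textbook knowledge of any tissue, 3 of 18 paternally and 4 of 14 maternally expressed genes changed (16.7% and 28.6%). These shares lie on either side of the 23.1% of all genes, and their difference was not tested.

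The genes beside the imprinted set were examined next, as the 3 nearest tested genes on each side of each of the 40 genes in the RefSeq gene order. Of 107 such neighbours, 15 were higher, 13 were lower and 79 did not pass, so that 26.2% were called against 23.1% of all genes. The neighbours include 17 genes of the second list of imprinted genes given further on, so the 2 counts overlap. Genes were ordered by start position alone, so some neighbours lie inside imprinted genes or domains rather than beside them. Examples are the microRNA genes *Mir483*, within *Igf2*, and *Mir673*, *Mir337* and *Mir540*, between *Dlk1* and *Dio3*. Log2 fold changes of the 107 neighbours ran from -0.50 to 0.54. Around *Airn* and *Igf2r*, the neighbours *Slc22a2*, *Plg*, *Mas1*, *Mrgprh* and *Pnldc1* did not pass, and *Map3k4* (log2 fold change 0.25, adjusted p = 0.0044) and *Agpat4* (0.48, adjusted p = 1.1e-04), farther off, rose. In the region of *Cd81* the tetraspanin gene *Tspan32* fell, by 0.35 on the log2 scale (SE 0.05, adjusted p = 8.2e-04), while *Cd81* and *Tssc4* rose. *R74862*, between *Tspan32* and *Cd81*, rose as well (0.37, adjusted p = 0.012), with both means near background (4.90 and 5.27). Beyond *Peg10*, *Pon2*, encoding an enzyme that protects against lipid oxidation, fell by 0.44 (adjusted p = 2.1e-04), and *Pon1* and *Pon3* did not pass. *Agpat4*, *Pon2*, *Atp10a*, given with the second list of imprinted genes, and *Tmed3*, a cargo receptor gene near *Rasgrf1* that rose by 0.43 (adjusted p = 1.2e-04), had the smallest p among called neighbours. The others were picked with their values in view. In all 3 regions, called genes stood next to genes that did not pass.

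**Figure D3:**
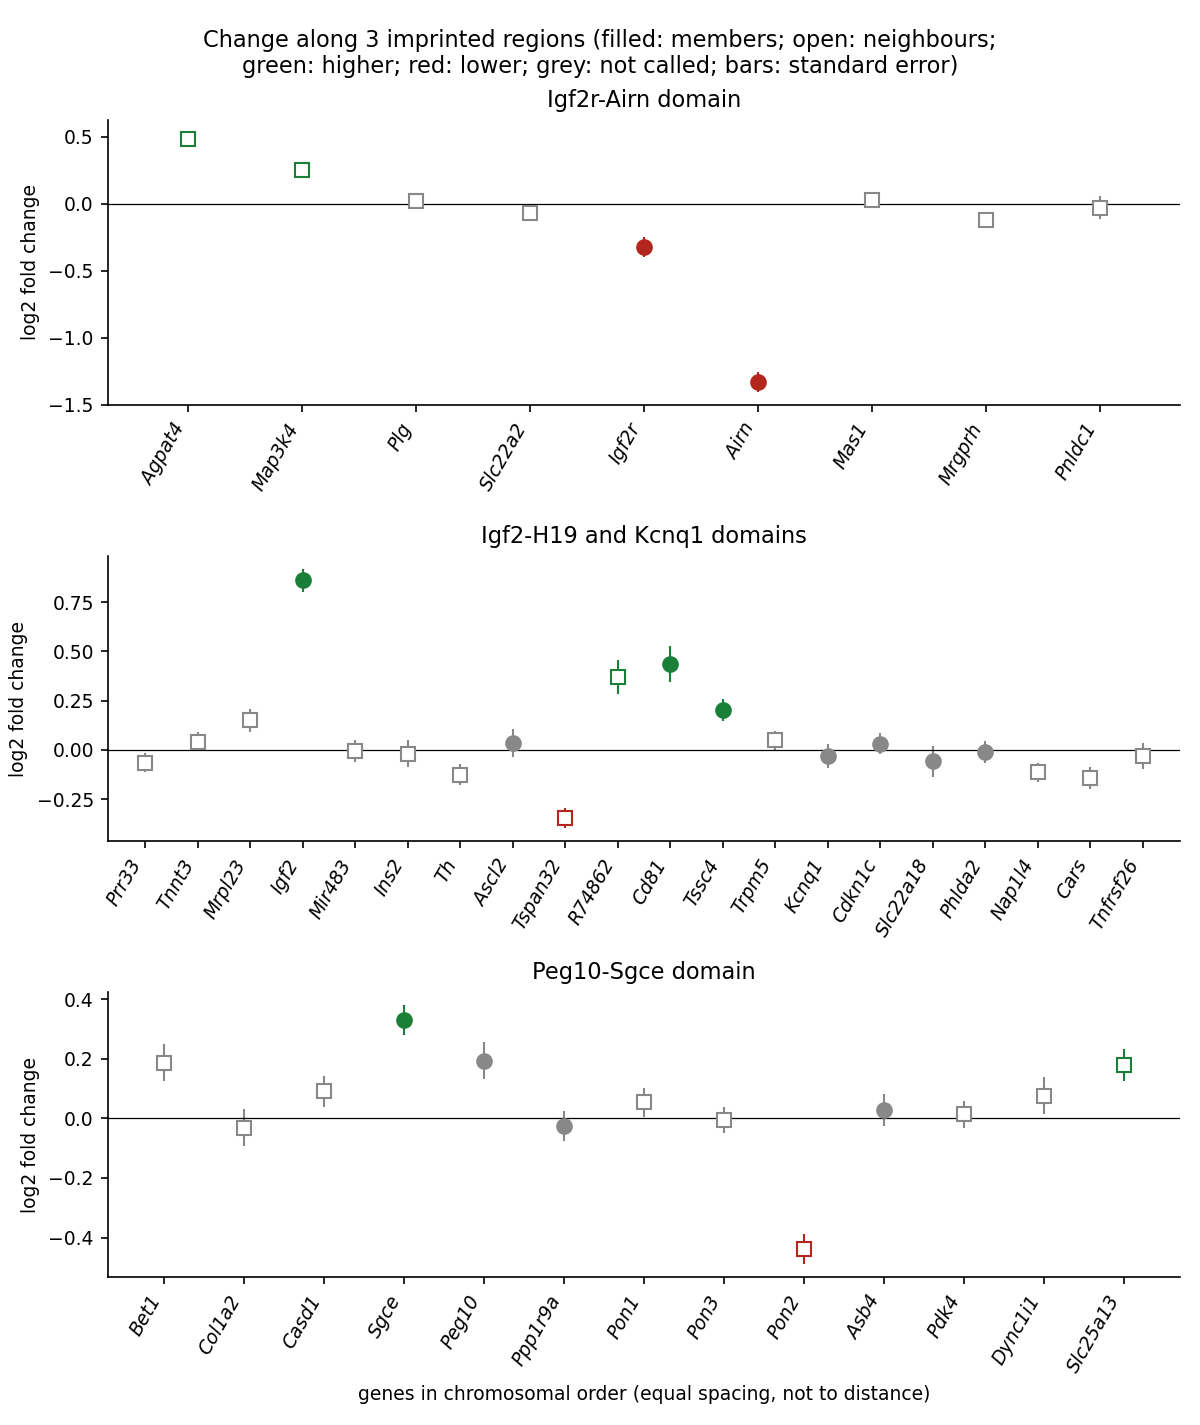
Log2 fold change of dKO over wild-type cells (vertical axis) of imprinted genes (filled) and their neighbours (open) in chromosomal order (horizontal axis, equal spacing) in 3 regions, with standard errors as bars. Green marks genes called higher, red genes called lower and grey genes not called. *Igf2r* and *Airn* fell between neighbours that were not called, and *Tspan32* fell while *Cd81* and *Tssc4* rose.

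Of a second list of imprinted genes outside the 40, 41 of 45 were measured, of which 10 fell, 1 rose and 30 did not pass. Of genes above background, where 28 of the 41 lay, 34.6% were called, but the share of the list also counts genes near background. That share is 26.8%, close to the 23.1% of all genes. The number of calls is thus no result about imprinted genes. Decreases made up most of these calls, while of all genes 10.0% were called lower and 13.1% higher. That difference in direction was not tested. The largest decrease was that of *Mcts2*, a retrogene within *H13* that is expressed from the paternal allele. It went from 8.66 ± 0.04 to 7.83 ± 0.26 (SD, n = 3 each; log2 fold change -0.83, SE 0.11, adjusted p = 3.8e-04 from limma). *Mcts2* closely resembles its parent gene *Mcts1*, so its row may read both. *Qpct*, which encodes an enzyme that modifies the N terminus of proteins, fell from 5.65 to 4.99 (log2 fold change -0.66, adjusted p = 1.2e-04). With a mean of 5.32 over all arrays, *Qpct* counted as near background. Its wild-type values of 5.50, 5.67 and 5.80 lay on both sides of the background level, and all its dKO values lay under it. *Atp10a*, encoding a lipid-transporting ATPase and lying beside *Ube3a*, fell by 0.45 (adjusted p = 4.5e-04). *Chrac1*, encoding a histone-fold protein, was the gene that rose (0.39, adjusted p = 0.0042), and it was named after its value had been seen. The median change over the list was -0.01, against 0.01 for all genes.

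Of 22 factors that set, keep or erase imprints, 8 fell, 1 rose and 13 did not pass. This is 40.9% called, against 23.1% of all genes and 34.6% of genes above background, where 18 of the 22 lay. Of all genes, 10.0% were called lower and 13.1% higher, and the difference in direction was not tested. The decreases included those of all 3 *Tet* genes, whose products oxidize methylated cytosine. *Tet1* went from 11.05 ± 0.01 to 10.56 ± 0.09 (SD, n = 3 each; log2 fold change -0.49, adjusted p = 1.4e-04 from limma), *Tet2* fell by 0.35 (adjusted p = 0.0015), and *Tet3* fell by 0.59 (adjusted p = 7.9e-04, 0.0522 by the methods' t-test). *Smchd1*, encoding a chromatin protein that helps to silence imprinted clusters and the inactive X, fell by 0.46 (adjusted p = 1.2e-04). The other decreases were those of *Dnmt3b* (-0.32, adjusted p = 0.0017), *Dnmt3a* (-0.23, adjusted p = 0.0054), *Uhrf1* (-0.28, adjusted p = 0.0054) and *Zfp445* (-0.29, adjusted p = 0.015). *Trim28*, the corepressor that Zfp57 recruits, was the gene that rose, by 0.14 (adjusted p = 0.045). *Dnmt1* (-0.01, adjusted p = 0.89), *Ctcf* (-0.08, adjusted p = 0.32) and *Zfp57* (-0.12, adjusted p = 0.20) did not pass. The last 4 genes were picked with their values in view. The median change over the list was -0.08. Fewer cells of a type and less RNA per cell cannot be told apart in these bulk samples.

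**Figure D4:**
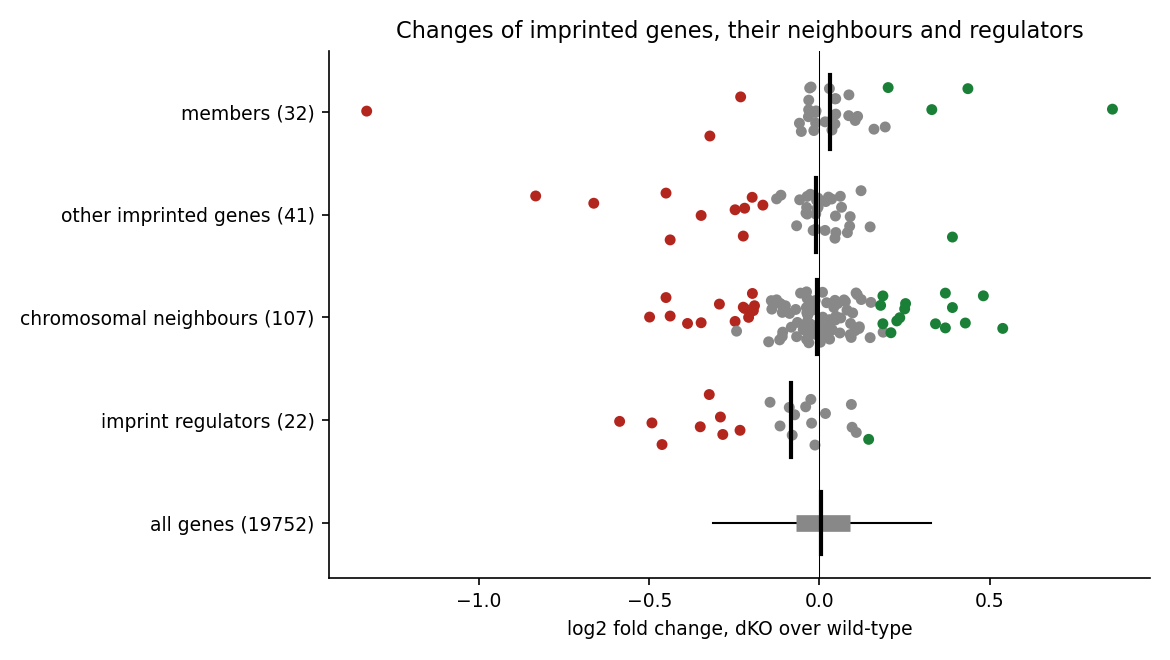
Log2 fold change of dKO over wild-type cells (horizontal axis) of the 32 imprinted genes, 41 other imprinted genes, 107 chromosomal neighbours and 22 imprint regulators (rows, spread vertically only for legibility). Green points were called higher, red points lower and grey points not called, black bars are medians, and the lowest row shows the median, the quartiles (grey) and the 5th to 95th percentiles (line) of all 19752 genes. The medians of the first 3 rows lie at 0.03, -0.01 and -0.01, and that of imprint regulators at -0.08.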

How the data were processed

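RNA of 3 wild-type and 3 dKO samples was hybridized to Affymetrix arrays (Mouse Gene 1.0 ST in the Methods, Mouse Exon 1.0 ST in the series' design text). Partek was the authors' software for the arrays, and RMA is named in the submitters' processing notes. The deposited values are log2 signals, background-corrected and quantile normalized between arrays, with medians of 6.27 to 6.32. Such normalization hides a change shared by most genes and compresses differences of dim genes. Their versions were not found in these sources.

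Gene names came from the array annotation, with symbols updated by Entrez identifier from RefSeq (GRCm38.p6, used for names, gene order and start-site sequences). Of 25254 rows, 21496 had 1 symbol, 1565 several and 2193 none, and 21415 of the first were found in RefSeq. The brightest row of each gene was kept, which left 19752 genes. limma 3.58.1 in R 4.3.3 was fitted to the deposited log2 values with genotype as the only term, with Benjamini-Hochberg adjustment over all genes. It was tested on simulated data. Arrays number 3 per genotype, which limits precision, and an exact permutation of single values cannot go below p = 0.1. Alternatives were other normalizations, filters on dim genes, the mean of a gene's rows, robust variances, the t-test that the methods name for other assays (the methods' t-test), a replicate block and each array left out. Figures were drawn with matplotlib 3.10.9.

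All genes of the list are accounted for, in full where the adjusted p was under 0.05, or under 0.2 for genes above background. Of other lists, up to 4 called genes with the smallest p are named, and marker genes, further neighbours and others named outside this rule were picked with their values in view. Genes and lists were chosen with earlier results of these data known.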

Additional observations from a re-analysis of the deposited data

How the results depend on the processing

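Directions held in every alternative for the 9 imprinted genes shown by array. *Airn* and *Igf2* kept their calls in all 14 alternatives, with highest adjusted p of 0.0090 and 0.0091. By the methods' t-test 2565 genes were called (1392 higher, 1173 lower), 2 imprinted genes were higher and 1 was lower, and 6 other imprinted genes and 12 neighbours were called. With 5 neighbours on each side, 44 of 171 were called, more of them because more genes were tested. With the median of all genes as background level, 10 of the 32 genes lay above it. With each array left out, imprinted genes called higher numbered 3 to 4 and those called lower 1 to 3. The lowest count of lower genes was that without dKO replicate 2. Other imprinted genes called numbered 7 to 11, with 7 without dKO replicate 2 and 7 without wild-type replicate 3 (cause not tested). Calls over all genes numbered 3397 to 4038, neighbours 20 to 25 and regulators 7 to 8. Among all called genes 56.7% were higher, 48.8% with cyclic loess and 53.6% with a further quantile step. Same-numbered arrays of the genotypes deviated together only weakly (correlations 0.099, 0.024 and 0.070), so the numbers were not taken as pairs. Arrays of different number had correlations from -0.098 to 0.040. With the replicate block, 7 imprinted genes and 4544 of all genes were called, and the 7 were the same genes. The block lowered the limma adjusted p of *Meg3* from 0.046 to 0.0092 and raised that of *Sgce* from 0.0012 to 0.0039. RMA values of dim genes can understate change, so the sizes of the folds of *Igf2*, *Sgce*, *Peg10* and *Meg3* are uncertain. All *Meg3* values and the wild-type *Sgce* values lay under the background level, where expression itself is not shown.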
